A study of Mus musculus with 6 samples.

Results

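The genes of MHC class II antigen presentation were followed in IL-4-treated bone marrow-derived macrophages (BMDMs). The mice had or lacked a myeloid deletion in *Acly*, the gene of ATP citrate lyase. The 10 genes were chosen by name: the regulator gene *Ciita*, the invariant chain gene *Cd74*, the classical chain genes *H2-Aa*, *H2-Ab1* and *H2-Eb1*, the peptide editor genes *H2-DMa*, *H2-DMb1* and *H2-DMb2*, and the editor inhibitor genes *H2-Oa* and *H2-Ob*. All 10 were found among the 24445 genes with a row in the count table, and 7 of them had enough counts to enter the 12023 genes tested. The other 3 were *H2-DMb2*, *H2-Oa* and *H2-Ob*.

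The study comprised 6 mRNA libraries of BMDMs from female mice. In the AclyM-KO group (3 libraries, labelled KO), exon 9 of *Acly* is floxed and Cre under *Lyz2* control removes it in myeloid cells. The control group (Ctrl, 3 libraries, labelled WT) carried the same floxed alleles on a C57Bl/6J background without Cre. Both groups were differentiated for 7 days in medium with L929-conditioned medium and then received 100 U/mL IL-4 for 24 h, and the age of the mice is not given in the sources used here. The study describes the replicates once as biological and once as technical ones of pooled mice. The p-values therefore measure only the spread between libraries, which may be technical. Adjusted p-values without a named tool are those of edgeR, and SE is the standard error of a log2 fold change. The counts kept per library ranged from 12151975 to 15587283. *Acly* itself fell from 334 ± 14.4 to 138 ± 6.63 CPM (read counts scaled to the library size, SD, n = 3 each). This was 41.4% of the Ctrl mean. Counts were of whole transcripts, so *Acly* RNA lacking exon 9 could not be told from intact RNA. The macrophage genes *Csf1r*, *Cd68* and *Adgre1* were abundant in Ctrl, at 2434 ± 142, 2430 ± 88.1 and 1573 ± 75.9 CPM (SD, n = 3). *Cd14* and *Fcgr1*, also macrophage markers, were far less abundant in Ctrl, at 27.7 ± 0.897 and 25.2 ± 3.11 CPM (SD, n = 3). Counts are of bulk RNA, in which fewer cells of a type and less RNA per cell cannot be told apart.

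MHC class II molecules are cell surface heterodimers that show peptides from endocytosed proteins to CD4+ T cells. The α and β chains assemble with the invariant chain, which blocks the groove until lysosomal proteases trim it to a short remnant, and the DM heterodimer then exchanges this remnant for peptide while the DO heterodimer restrains DM. Expression of the classical chain genes depends on CIITA, a coactivator that does not bind DNA itself but is recruited by RFX, CREB and NF-Y at the shared X and Y boxes of class II promoters. Macrophages express these genes at moderate levels, and both interferon-γ and IL-4 are known to raise them.

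Of the 10 genes, 8 lie within 224 kb on mouse chromosome 17 (GRCm38, 34092340 to 34316674, from the start of *H2-Oa* to the end of *H2-Eb1*). *H2-Aa* is on the minus strand and the other 7 are on the plus strand. The RefSeq promoter table (GRCm38.p6) held 8 promoters of 7 of the genes: *H2-Aa*, *H2-Eb1*, *H2-DMa*, *H2-DMb1*, *H2-DMb2*, *H2-Oa* and *H2-Ob*. The stretches below are shown because they are the DNA these genes share. Capitals mark TGATTGG, the letters of the Y box core, and the AAC that stands 20 to 30 bases before it, within the letters expected of the X box. Both were chosen with these promoters in view.
*H2-Aa* (chr17:34287859-34287914, minus strand): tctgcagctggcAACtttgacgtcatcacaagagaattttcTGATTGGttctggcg
*H2-Eb1* (chr17:34305766-34305820, plus strand): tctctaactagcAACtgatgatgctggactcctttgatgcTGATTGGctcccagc
*H2-DMb1* (chr17:34153087-34153142, plus strand): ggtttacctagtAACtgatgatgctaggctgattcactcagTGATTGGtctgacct
*H2-DMb2* (chr17:34145116-34145171, plus strand): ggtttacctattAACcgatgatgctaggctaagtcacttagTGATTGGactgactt
*H2-Oa* (chr17:34092293-34092348, plus strand): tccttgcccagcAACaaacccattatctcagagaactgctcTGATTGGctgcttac
*H2-Ob* (chr17:34238808-34238860, plus strand): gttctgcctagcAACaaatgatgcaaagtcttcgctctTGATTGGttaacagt

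Within the 250 bases before the RefSeq start, TGATTGG was found on either strand in 7.23% of all 32851 promoters of the table. AAC followed by TGATTGG at this spacing on the same strand was found in 0.855% of them (281 promoters). It was present in 6 of the 7 class II genes with a promoter and in neither of the 2 promoters of *H2-DMa*. The spacing from AAC to TGATTGG was 29 bases in *H2-Aa*, *H2-DMb1*, *H2-DMb2* and *H2-Oa*, 28 in *H2-Eb1* and 26 in *H2-Ob*. TGATTGG stood 45 to 92 bases before the RefSeq start. This start can differ from the GENCODE start used for gene positions, so the stretches of *H2-DMb1* and *H2-DMb2* lie inside the genes as placed by GENCODE. The matched letters were thus shared by genes with many counts (*H2-Aa*) and by genes with almost none (*H2-Ob*), and a match describes these letters only.

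Every class II gene tested was lower in AclyM-KO. All 7 had a log2 fold change below 0 (background 49.7% of genes tested) and an edgeR adjusted p-value under 0.05 (background 12.6% lower, 24.9% in either direction). For all 7, every AclyM-KO library was below every Ctrl library (background 19.8%). The AclyM-KO means were 70.4% to 81.2% of the Ctrl means, and the log2 fold changes ranged from -0.51 to -0.30 (standard errors 0.0481 to 0.10), with a median of -0.35 against 0.0014 over all genes tested. All 7 had at least 178 counts in every library, so none entered the test through 1 group only. None was beyond the fold change limit of the study, a log2 fold change of 0.58 (background 2.57% lower, 2.98% higher and 5.55% in either direction). With that limit 0 of 7 genes were called by edgeR, DESeq2, limma-voom or glmTreat, although all 7 had an unadjusted edgeR p-value under 0.05 (background 36.7%). An exact two-sided permutation test on CPM gave p = 0.10 for each of the 7 genes, the smallest that 3 against 3 libraries allow.

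**Figure D1:**
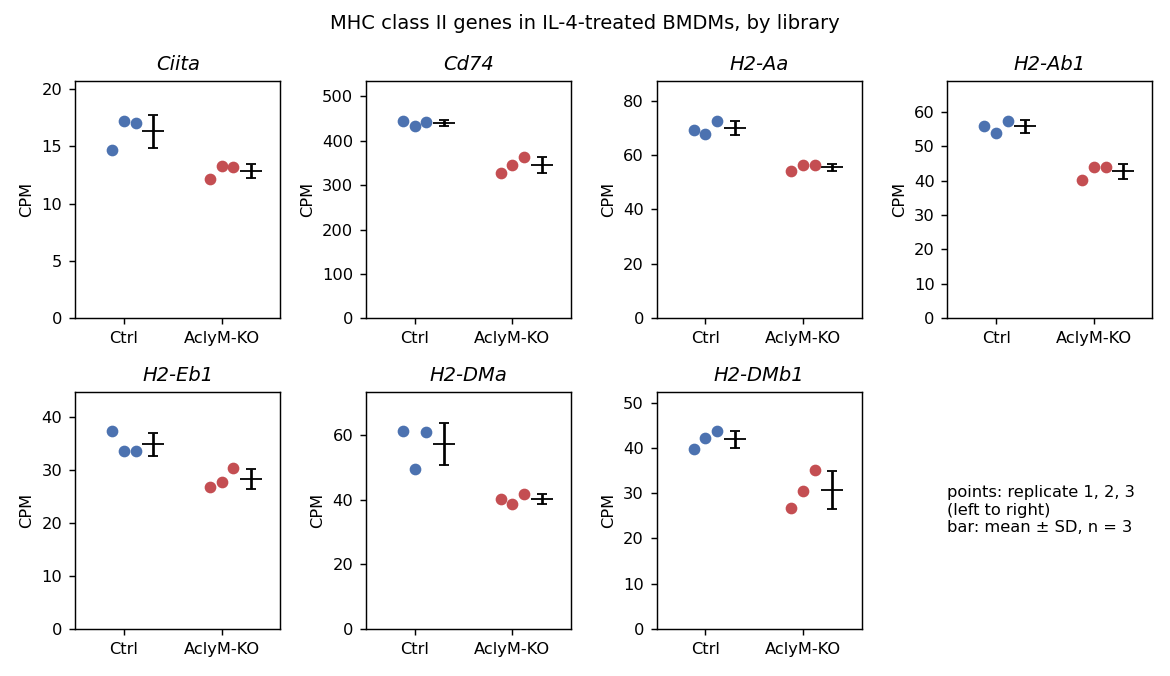
Each panel plots the CPM of 1 class II gene (y axis, from 0) in the 3 Ctrl (blue) and 3 AclyM-KO (red) libraries, with the mean ± SD beside the points. In all 7 panels the red points sit below the blue ones, as for *Cd74* with 327 to 363 CPM against 434 to 446.

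*Ciita*, the master regulator, lies on the plus strand of chromosome 16 from 10480059 to 10528418. It was at 14.7, 17.3 and 17.1 CPM in Ctrl, whereas AclyM-KO had 12.1, 13.3 and 13.2 CPM. The groups did not overlap, and the first library was the lowest of its group in both. The log2 fold change was -0.34 (SE 0.10, adjusted p = 0.0260 by edgeR). This was the least secure of the 7 results, since *Ciita* had only 178 to 225 counts per library. Removing any 1 library kept the log2 fold change between -0.42 and -0.30, but the adjusted p-value was under 0.05 only without Ctrl replicate 1 (0.0123) and was 0.0522 to 0.0974 without any of the other 5. With DESeq2 it was 0.0725. *Ciita* has alternative first exons under separate promoters, and the table held 5 transcripts of it. Their totals over the 6 libraries ranged from 1220 to 1230 counts, so reads were counted almost wholly on all of them and promoter use could not be separated.

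*Cd74*, which encodes the invariant chain that guides class II molecules to endosomes, lies on the plus strand of chromosome 18 from 60803848 to 60812652. It had 446, 434 and 442 CPM in Ctrl and 327, 345 and 363 CPM in AclyM-KO. It was the most abundant gene of the set, and its Ctrl libraries lay close together (SD 5.99 CPM). The log2 fold change was -0.35 (SE 0.0481, adjusted p = 7.64e-05 by edgeR). It took 60.7% to 62.1% of all counts of the 10 genes in every library of either group. Both *Cd74* transcripts in the table, of 1410 and 1224 bases, had identical counts in every library, so the long and short forms of the invariant chain could not be told apart.

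Of the classical chains, *H2-Aa*, the α chain of the I-A molecule, had 69.3, 67.8 and 72.6 CPM in Ctrl and 54.0, 56.2 and 56.1 CPM in AclyM-KO. Its partner *H2-Ab1*, the β chain of I-A, had 56.0, 53.8 and 57.5 CPM in Ctrl and 40.2, 43.9 and 44.1 CPM in AclyM-KO. Both genes thus separated the groups with a gap wider than the spread within either. Their log2 fold changes were -0.34 for *H2-Aa* (SE 0.0535, adjusted p = 2.98e-04 by edgeR) and -0.38 for *H2-Ab1* (SE 0.0608, adjusted p = 2.78e-04 by edgeR).

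*H2-Eb1* encodes the β chain of the I-E molecule. Mice of the C57BL/6 background are known to lack a functional α chain for it. *H2-Eb1* had 37.3, 33.6 and 33.5 CPM in Ctrl and 26.8, 27.7 and 30.4 CPM in AclyM-KO, a log2 fold change of -0.30 (SE 0.0767, adjusted p = 0.00931 by edgeR). The groups did not overlap, but the gap between them was narrower than for I-A. Without AclyM-KO replicate 1, its lowest library, the log2 fold change was -0.27 and no longer passed (adjusted p = 0.0520).

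The largest difference was in the DM heterodimer, the peptide editor. *H2-DMa*, its α chain, had 61.2, 49.6 and 60.9 CPM in Ctrl and 40.2, 38.7 and 41.9 CPM in AclyM-KO. The Ctrl replicate 2 library lay below the other Ctrl libraries but above all AclyM-KO libraries. The log2 fold change was -0.51 (SE 0.0766, adjusted p = 1.75e-04 by edgeR). Without that library it was -0.60 (adjusted p = 2.35e-07), which was beyond the fold change limit, so that 1 of the 7 genes was then called. The counted *H2-DMa* transcript shared no exonic base with another gene, although the gene overlaps *Brd2* on the opposite strand.

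*H2-DMb1*, a β chain of DM, had 39.9, 42.2 and 43.7 CPM in Ctrl and 26.8, 30.4 and 35.2 CPM in AclyM-KO. The AclyM-KO libraries were more scattered (SD 4.18 CPM) than the Ctrl libraries (SD 1.94 CPM), yet they stayed below them. The log2 fold change was -0.44 (SE 0.0868, adjusted p = 0.00157 by edgeR) and it lay between -0.55 and -0.35 when any 1 library was removed. A second β chain gene, *H2-DMb2*, is 94.4% identical to it over 1255 aligned transcript bases, with a longest identical run of 221 bases, so reads of one can be counted on the other. For *H2-DMb2* the counts were 8, 4 and 10 in Ctrl against 3, 3 and 6 in AclyM-KO. The filter on low counts removed *H2-DMb2*, and without the filter its log2 fold change of -1.01 (standard error 0.66) was not significant (adjusted p = 0.336). With the counts of both β chain genes added together the log2 fold change was -0.45 (adjusted p = 0.00148).

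*H2-Oa* and *H2-Ob* encode the DO heterodimer, which inhibits DM and is known mainly from B cells. The Ctrl libraries held 3, 0 and 4 counts of *H2-Oa* and the AclyM-KO libraries 5, 8 and 0. For *H2-Ob* the counts were 3, 0 and 0 in Ctrl against 0, 3 and 1 in AclyM-KO. At this depth, where 3 counts correspond to 0.193 to 0.245 CPM, no difference was detectable and no fold change is given. In addition, 29.5% of the exonic bases of *H2-Oa* lie under exons of *BC051537* on the opposite strand, and whether the counting used strand is not given in the sources used here.

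**Figure D2:**
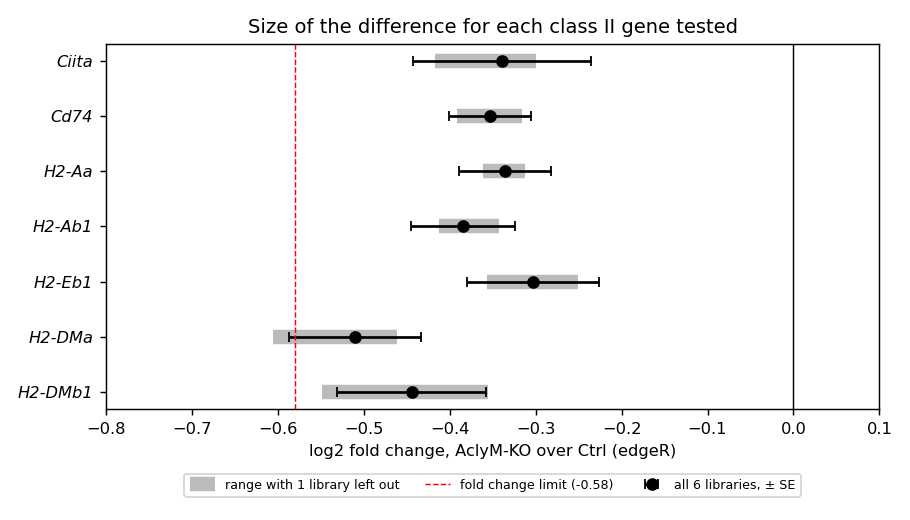
The log2 fold change of each of the 7 class II genes tested (black points ± standard error) is drawn with its range when any 1 library was removed (grey bars). All ranges lie left of 0, and only that of *H2-DMa* reaches past the limit of -0.58 (red dashed line), to -0.60.

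Levels were compared between genes per kilobase of the counted transcript. In Ctrl, *Cd74* was highest at 312 ± 4.25 RPKM (SD, n = 3), followed by *H2-Aa* at 62.0 ± 2.19, *H2-Ab1* at 46.0 ± 1.51, *H2-DMa* at 34.5 ± 3.97, *H2-DMb1* at 29.9 ± 1.38, *H2-Eb1* at 20.9 ± 1.29 and *Ciita* at 3.85 ± 0.342 RPKM. AclyM-KO had the same order, from 245 ± 12.8 RPKM for *Cd74* to 3.04 ± 0.149 RPKM for *Ciita*. Only *H2-DMa* and *H2-DMb1* did not differ beyond their spread, in either group. *Ciita* would move with the transcript chosen, since its transcripts are 3953 to 6007 bases long, but it would stay the lowest of the 7.

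The relative amounts of the chains, taken as count ratios within a library, do not depend on the scaling of libraries. There were 1.24, 1.26 and 1.26 *H2-Aa* counts per *H2-Ab1* count in Ctrl and 1.34, 1.28 and 1.27 in AclyM-KO. The groups of this ratio did not overlap, but the difference was small (exact permutation test, two-sided, p = 0.10, the smallest possible, and 0.60 adjusted over 6 ratios). *Cd74* counts per *H2-Aa* count were 6.30 ± 0.194 in Ctrl and 6.22 ± 0.215 in AclyM-KO (SD, n = 3 each), with an exact permutation p of 0.90. *Ciita* counts per 100 *Cd74* counts were 3.71 ± 0.37 and 3.73 ± 0.0982 (exact permutation p = 1.0). *H2-DMa* counts per *H2-DMb1* count were 1.37 ± 0.181 and 1.32 ± 0.161 (exact permutation p = 0.80). The ratios of *Cd74* to *H2-DMa* and of *H2-Eb1* to *H2-Ab1* gave exact permutation p-values of 0.30 and 0.20. With 3 libraries a group none of the 6 ratios could have reached 0.05.

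Added together, the 10 genes made up 0.0728%, 0.0703% and 0.0734% of all counts in Ctrl, against 0.0523%, 0.0555% and 0.0578% in AclyM-KO. Within AclyM-KO, replicate 1 was lowest for 6 of the 7 genes tested and replicate 3 highest for 5. Within Ctrl, replicate 2 was lowest for 4 of the 7. Across the 6 libraries the pairwise correlations of log2 CPM between the 7 genes ranged from 0.73 (*Ciita* and *H2-Eb1*) to 0.99 (*H2-Aa* and *H2-Ab1*). These 21 values are a description over 6 libraries that share the difference between the groups. The genes outside the set whose log2 CPM was most like the mean of *Cd74*, *H2-Aa*, *H2-Ab1* and *H2-Eb1* over these libraries were *Sidt2*, *Phf20*, *Plod1*, *Cmklr1* and *Il18bp* (Pearson r from 0.995 to 0.997, n = 6, out of 12016 genes searched). That mean separated the groups, so a fall in AclyM-KO follows from how these genes were chosen and is no further support. *Sidt2*, *Phf20* and *Plod1* had log2 fold changes of -0.23, -0.15 and -0.32. *Cmklr1*, a receptor for the chemoattractant chemerin, and *Il18bp*, a secreted inhibitor of IL-18, fell by 0.87 and 0.93 on the log2 scale.

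**Figure D3:**
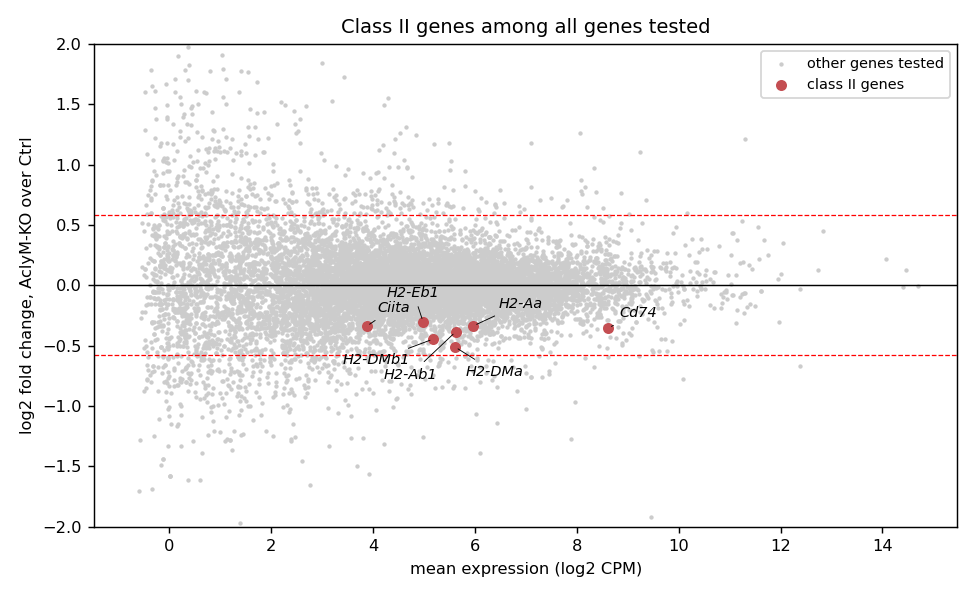
The log2 fold change (y axis) of all genes tested (grey) is plotted against mean expression in log2 CPM (x axis), with the 7 class II genes in red and the fold change limit of 0.58 dashed. The class II genes sit between -0.51 and -0.30, and 27 other genes lie outside the plotted range of 2 in either direction.

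The class II genes on chromosome 17 stand among genes with other functions, and these went both ways. Within the 224 kb, 5 class II genes and 5 other genes could be tested. *Brd2*, a bromodomain reader of acetylated histones next to *H2-DMa*, rose from 246 ± 4.97 to 422 ± 4.46 CPM (SD, n = 3 each; log2 fold change 0.78, SE 0.0445, adjusted p = 1.88e-08 by edgeR). *Tap2* and *Tap1* encode the transporter that supplies peptide for MHC class I. Their log2 fold changes were -0.21 and -0.20 (edgeR adjusted p = 0.00905 and 0.0492). These were closer to 0 than those of any class II gene tested, a difference that was not itself tested. The result for *Tap1* was lost with DESeq2, with limma-voom, with upper-quartile scaling, with the mean of all rows, with the replicate block and without any 1 AclyM-KO library. Without Ctrl replicate 3 its log2 fold change was -0.10 (adjusted p = 0.235). Also named after their values were seen, the immunoproteasome genes *Psmb9* (-0.13) and *Psmb8* (0.0049) did not pass the test (adjusted p = 0.347 and 0.970). *H2-Eb2*, outside this stretch, had 0 to 4 counts per library, and *H2-Ea* was not matched in the table.

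**Figure D4:**
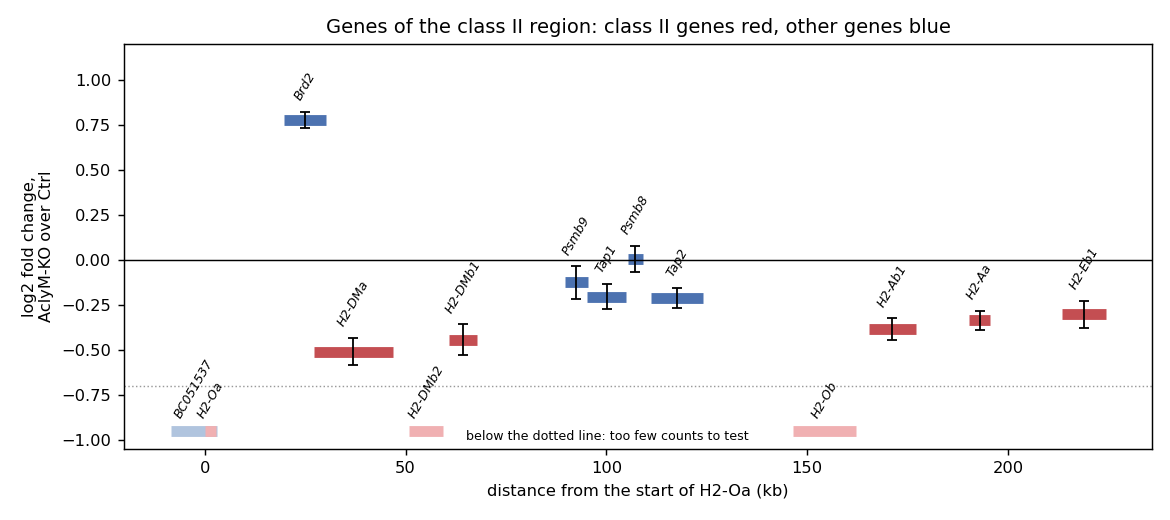
Genes of the class II region are drawn to scale by distance from the start of *H2-Oa* in kb (x axis) at their log2 fold change ± standard error (y axis), with class II genes in red and other genes in blue. The 5 red bars above the dotted line lie between -0.51 and -0.30, while *Brd2* lies at 0.78 and the other blue bars at -0.21 to 0.0049.

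Among 19 transcription factors and coactivators of class II genes and of *Ciita*, all tested, 4 were lower and 0 higher (edgeR adjusted p under 0.05, background 12.6% lower and 12.4% higher). Of the 19 genes, 0 were beyond the fold change limit (background 5.55%), and the median log2 fold change was -0.11. *Irf8*, a myeloid factor that acts on the myeloid promoter of *Ciita*, was at 181 ± 8.57 CPM in Ctrl and at 134 ± 4.11 CPM in AclyM-KO (SD, n = 3 each; log2 fold change -0.43, SE 0.0519, adjusted p = 2.36e-05 by edgeR). Its partner *Spi1*, which encodes PU.1, was lower by less (-0.22, adjusted p = 0.00350). *Irf4*, an IL-4-induced factor, was at -0.39 (adjusted p = 0.00107). *Prdm1*, which encodes a repressor of *Ciita*, was also lower, at -0.45 (adjusted p = 0.00223). Genes of activators and of a repressor thus moved in the same direction.

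Some factors were singled out after their values were seen, because they bind the X and Y boxes or carry cytokine signals, and none of these passed the test. *Rfx5*, a subunit of RFX, was at -0.36 (SE 0.14, adjusted p = 0.0671 by edgeR), with overlapping groups. The RFX subunit genes *Rfxank* and *Rfxap* were at -0.12 and 0.038 (edgeR adjusted p = 0.341 and 0.896). *Creb1*, which encodes CREB, was at -0.0060 (edgeR adjusted p = 0.950). The NF-Y subunit genes *Nfya*, *Nfyb* and *Nfyc* were at -0.082, 0.27 and 0.14 (adjusted p = 0.250, 0.0794 and 0.425). *Stat6*, which carries the IL-4 signal, was at -0.12 (adjusted p = 0.0689).

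The list of antigen processing held lysosomal proteases and *Ifi30* beside the protease inhibitor gene *Cst3* and 3 Fc receptor genes, which take up antigen. Of 14 tested, 5 were lower and 4 higher (background 12.6% and 12.4%). The inhibitor gene *Cst3* (-0.15, adjusted p = 0.0171) and the Fc receptor gene *Fcgr3* (-0.16, adjusted p = 0.0197) were among the lower ones. Of the 14 genes, 1 was beyond the fold change limit (background 5.55%), and the median log2 fold change was -0.058. That gene was *Ctsh*, encoding the aminopeptidase cathepsin H, which fell from 156 ± 12.1 to 98.1 ± 5.63 CPM (SD, n = 3 each; log2 fold change -0.67, SE 0.0622, adjusted p = 1.80e-06 by edgeR). *Ifi30*, the thiol reductase of class II processing, was lower at -0.33 (adjusted p = 0.00108). *Ctss*, encoding cathepsin S, the protease that completes invariant chain cleavage, was lower by only -0.17 (adjusted p = 0.00317) from 3057 ± 125 CPM. Other lysosomal proteases were higher, as *Ctsc* at 0.41, *Ctsl* at 0.35 and *Ctsd* at 0.22 (edgeR adjusted p at most 2.65e-05). *Ctsb* was also higher, at 0.13 (edgeR adjusted p = 0.0120).

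Of 12 genes of class II trafficking and turnover, 3 were lower and 0 higher (background 12.6% and 12.4%), none beyond the fold change limit (background 5.55%), with a median log2 fold change of -0.044. Both members of a pair with opposite roles fell. *Marchf1*, the ubiquitin ligase that sends class II molecules to degradation, went from 98.3 ± 3.13 to 75.4 ± 1.13 CPM (SD, n = 3 each; log2 fold change -0.38, SE 0.0496, adjusted p = 4.74e-05 by edgeR). *Cd83*, whose product stabilises class II molecules against this ligase, went from 103 ± 7.01 to 72.1 ± 4.03 CPM (SD, n = 3 each; log2 fold change -0.52, SE 0.0605, adjusted p = 1.81e-05 by edgeR). The tetraspanin gene *Cd82* was at -0.18 (adjusted p = 0.0498), a result that DESeq2, limma-voom, upper-quartile scaling, the replicate block and every removal of a library except Ctrl replicate 2 lost.

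The interferon-γ response, a main inducer of *Ciita*, gave 2 lower and 2 higher of 11 genes tested, near the background of 12.6% lower and 12.4% higher, with a median log2 fold change of -0.0040. The receptor chain gene *Ifngr1* fell from 189 ± 13.1 to 132 ± 0.838 CPM (SD, n = 3 each; log2 fold change -0.52, adjusted p = 5.68e-06). The guanylate-binding protein genes went apart. *Gbp5* was at -0.55 (adjusted p = 0.0233, lost without Ctrl replicate 2 or AclyM-KO replicate 1), and *Gbp2* was at 0.38 (adjusted p = 0.00149). *Jak2*, the kinase that relays the signal, was at 0.26 (adjusted p = 0.00130). *Irf1*, again named after its values were seen, was at 0.016 (adjusted p = 0.899).

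**Figure D5:**
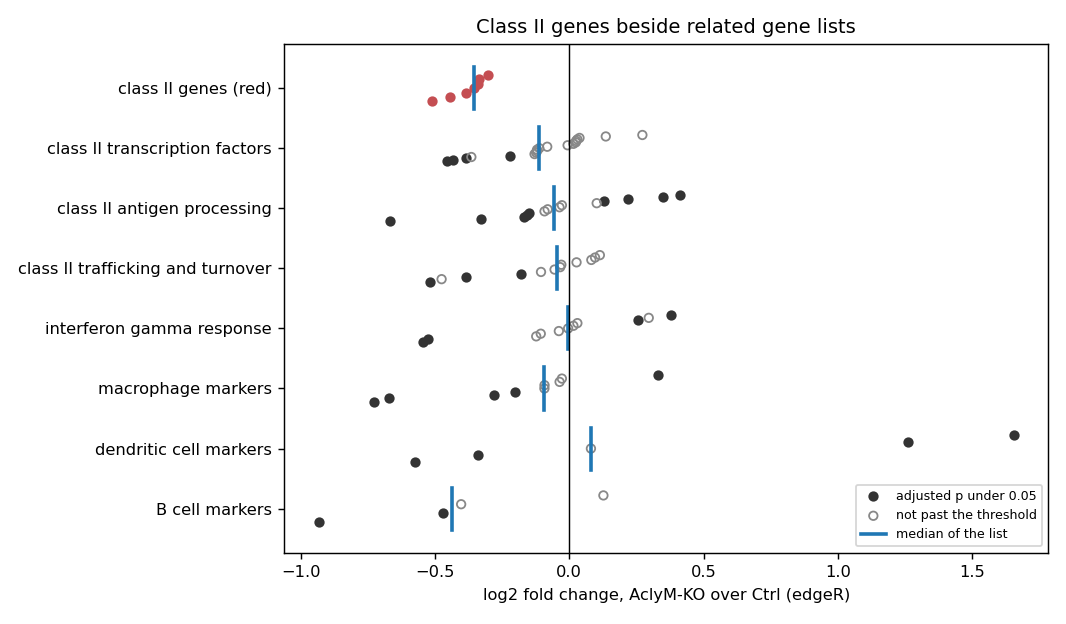
Each point is the log2 fold change of 1 gene tested (x axis) in the list named on the y axis, filled where the edgeR adjusted p-value was under 0.05, and the blue bar is the median of the list. The class II genes (red) are all filled and below 0 (median -0.35), and the other lists plotted have genes on both sides of 0. Of the macrophage markers 8 were below 0 and 1 above, and of the B cell markers 3 below and 1 above. The neutrophil markers, not plotted, had all 3 genes tested above 0.

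Other cells with class II could be present in such cultures, and their markers were read beside these results. B cell marker genes had a summed level of 37.6 to 40.7 CPM in Ctrl and 28.0 to 29.3 CPM in AclyM-KO, and of 4 tested 2 were lower and 0 higher (background 12.6% and 12.4%). Most of this was *Cd22* (33.1 ± 1.48 and 23.8 ± 0.205 CPM, SD, n = 3 each; log2 fold change -0.47, adjusted p = 2.11e-04). *Cd79b*, with 37, 29 and 37 counts in Ctrl and 18, 24 and 18 in AclyM-KO, was at -0.93 (adjusted p = 0.0138), which was lost with DESeq2 and without Ctrl replicate 3 or AclyM-KO replicate 1 or 3. The remaining genes tested, *Bank1* (21 to 40 counts per library) and *Fcrla* (10 to 15), did not pass. They were at -0.40 and 0.13 (edgeR adjusted p = 0.363 and 0.834). Of the genes that define B cells, *Pax5*, *Ms4a1* and *Cd79a* were near 0 in every library, with at most 1, 4 and 7 counts.

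Dendritic cell marker genes summed to 470 to 579 CPM in Ctrl and 409 to 432 CPM in AclyM-KO, mostly from *Itgax* (499 ± 57.3 and 394 ± 10.4 CPM, SD, n = 3 each; log2 fold change -0.34, adjusted p = 0.00137). Of 5 tested, 2 were lower and 2 higher (background 12.6% and 12.4%). The lower ones were *Itgax* and *Batf3* (-0.57, adjusted p = 0.00626). *Kit* was higher (1.26, adjusted p = 1.65e-04), and *Zbtb46* (0.081), named as the remaining one, did not pass. The other gene tested was *Cd209a*, with 3, 3 and 6 counts in Ctrl and 12, 16 and 15 in AclyM-KO. It passed the filter on low counts only through AclyM-KO, where it was high, so its value (1.65, adjusted p = 0.0128) is no support for a difference, and it was lost with DESeq2 and without Ctrl replicate 1. Several defining genes were near 0, with at most 1 count of *Flt3*, 2 of *Siglech*, 6 of *Xcr1* and 7 of *Clec9a*. *Ccr7* and *Dpp4* had at most 12 and 11 counts, whereas *Zbtb46* had 15 to 41 counts per library. The part of the dendritic cell marker genes in the class II result was not tested.

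Macrophage marker genes summed to 19029 to 19992 CPM in Ctrl and 16403 to 16679 CPM in AclyM-KO. Within this sum, *Lyz2* alone went from 6595 ± 515 to 4142 ± 120 CPM (SD, n = 3 each). Only AclyM-KO carries Cre under *Lyz2* control, and the part of this in the *Lyz2* value was not tested. Of 9 tested, 4 were lower and 1 higher (background 12.6% and 12.4%), with a median log2 fold change of -0.092. Beyond the fold change limit (background 2.57% lower and 2.98% higher) were *Mertk*, a receptor for apoptotic cells (-0.73, adjusted p = 2.56e-07), and *Lyz2*, the Cre driver gene (-0.67, adjusted p = 5.79e-08). *Itgam* (-0.28) and *Csf1r* (-0.20) were lower within it, and *Adgre1*, which encodes F4/80, was higher (0.33), all at an adjusted p of 0.00366 or less.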

How the data were processed

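RNA of 6 BMDM libraries was sequenced by the authors, who prepared strand-specific mRNA libraries, called bases with CASAVA 1.8.2, aligned to mm10 with STAR 2.5.2b and deposited raw counts for each RefSeq transcript. The counting program is not given in the sources used here. Rows were named through RefSeq (GRCm38.p6, 35440 rows) and GENCODE M21 (188 rows). The 117 unnamed rows of 35745, with 0.370% to 1.38% of counts, were left out. Because reads were counted on several transcripts of a gene, the row with the highest total was kept. Gene positions and transcript lengths are those of GENCODE M21, and promoter positions are those of RefSeq.

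The quasi-likelihood test of edgeR 4.0.16 was used under R 4.3.3 (filterByExpr, TMM, genotype only), with Benjamini-Hochberg adjustment over all genes tested. CPM use TMM-scaled sizes. The limit of 0.58 on the log2 scale is that of the study. Alternatives were DESeq2 1.42.0 (the test used in the study), limma-voom (limma 3.58.1), other scalings, filters and fold limits, the mean over rows, summed *H2-DMb1* and *H2-DMb2*, a replicate term and removal of each library. The members, lists and tests were chosen with earlier results of these data known. Named were all 10 members, *Acly*, called genes of the lists and up to 4 further significant genes per list. The 5 genes most like the class II mean and genes that were high or near 0 were named as well. Other genes of the lists, such as *Cst3*, *Fcgr3*, *Ctss*, *Ctsb*, *Cd14*, *Fcgr1*, *Bank1* and *Fcrla*, were named after their values were seen. The test was also run on data simulated from the fit to these libraries. Naive BMDMs and tumors were not analysed here.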

Additional observations from a re-analysis of the deposited data

How the results depend on the processing

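The 7 class II genes tested kept a log2 fold change below 0 under every alternative that was run. An adjusted p-value under 0.05 was seen for all 7 with other scalings, other filters, limma-voom and the mean over rows, for 6 with DESeq2, and for 5 to 7 with each library left out. The genes called beyond the fold change limit, 0 of 7, became 7 with no limit and 0 to 1 when any 1 library was removed. Over all genes, 309 were called lower and 358 higher. Without the limit these were 1511 and 1485, and with glmTreat, which tests against the limit itself, 41 and 77. Another scaling moved the median of all genes by at most 0.00464 on the log2 scale.

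The replicate numbers are shared by both groups but are not said to pair the libraries. Deviations of same-numbered libraries correlated at -0.065, 0.050 and -0.031, and not every library correlated best with its own number. With the replicate block, 302 genes were called lower and 350 higher, and all 7 class II genes had an adjusted p-value under 0.05 (edgeR). Of the other genes named, *Tap1*, *Cd82* and *Phf20* no longer passed with the block (edgeR adjusted p = 0.0558, 0.0578 and 0.0647). Depth limited *H2-DMb2*, *H2-Oa* and *H2-Ob* most, and *Ciita* among the genes tested.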

Other observations

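Lymphocyte and neutrophil marker genes were read as a further account of what the cultures held. None of the 7 T and NK cell genes in the table had enough counts to be tested. They summed to 0.608 to 1.15 CPM in Ctrl and 0.750 to 0.891 CPM in AclyM-KO, and *Ncr1* had 0 counts in every library. Neutrophil genes summed to 12.1 to 13.3 CPM in Ctrl and 18.6 to 19.1 CPM in AclyM-KO. Of 3 tested (background 12.4% higher), *S100a8* (log2 fold change 0.85, edgeR adjusted p = 0.00257) and *S100a9* (0.59, edgeR adjusted p = 0.0152) were higher and *Ltf* (0.35), named as the remaining one, did not pass (edgeR adjusted p = 0.206). The result of *S100a9* was lost without Ctrl replicate 3. *Ly6g*, *Elane* and *Mpo*, which define neutrophils and their precursors, had at most 1, 2 and 5 counts in a library.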
